A study of Mus musculus with 21 samples.

Results

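Motile cilium genes were followed in mouse epididymal white adipose tissue, a fat depot that lies against the epididymis and whose adipocytes carry no motile cilia. The members were all genes in the deposited exon count table whose symbol begins with Dnah, Dnaic, Rsph or Tekt and a digit, or is Dnali1 or Foxj1. The rule found 16 of the 38087 genes in the table. These were Foxj1, Dnali1, Dnaic1, Dnaic2, the tektins Tekt1 to Tekt5, and the radial spoke genes Rsph1, Rsph3a, Rsph3b, Rsph4a, Rsph6a, Rsph9 and Rsph10b2. No symbol in the table has Dnah followed directly by a digit, because the axonemal dynein heavy chains are listed there under the older spelling Dnahc. The 15 heavy chains were therefore not members. Of these, 5 outer arm and 9 inner arm chains were taken beside the members as related genes.

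A motile cilium is built on an axoneme, a ring of doublet microtubules around a central pair. Dynein arms on the doublets pull neighbouring doublets past each other, radial spokes pass signals from the central pair to the arms, and tektins are filaments within the doublet wall. FOXJ1 is the transcription factor that switches on the genes of motile cilia. In the male tract, multiciliated cells line the efferent ducts that lead from the testis to the epididymis, whereas principal cells of the epididymis carry immotile stereocilia, and sperm tails contain an axoneme of their own.

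The 21 libraries came from male C57BL/6j mice aged 15-16 weeks. Germ-free mice, which carry no microbes, gave 9 libraries and conventionally raised mice gave 12, with food freely available to both. Samples were collected at zeitgeber times ZT02, ZT06, ZT10, ZT14, ZT18 and ZT22, in hours after lights on. Conventional fat had 2 libraries at each of the 6 times, numbered 1 and 2, whereas germ-free fat had 2 at ZT06, ZT10 and ZT22 and 1, numbered 2, at ZT02, ZT14 and ZT18. The labels do not say that each library is a separate mouse, and the p-values below then reflect the variation among libraries, which may be technical. Total counts ranged from 24388294 to 48348181 per library. Levels are given in CPM, counts per 1000000 of the library size after TMM scaling (trimmed mean of M-values). A count of 0 allows up to 3 counts, for counting error only. Per 1000000 total counts before TMM scaling, 3 counts corresponded to between 0.0621 and 0.123 across libraries. In bulk tissue, fewer cells of a type and less RNA per cell cannot be told apart.

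The members behaved in 3 ways, which were described after their values were seen. Foxj1, Dnali1, Dnaic1, Dnaic2, Tekt1, Tekt4, Rsph1, Rsph4a and Rsph10b2 varied many fold between libraries and were high in the same few. Tekt3, Tekt5 and Rsph6a were low everywhere and highest in another library, one high in spermatid mRNAs. Rsph3a and Rsph3b were present at a steady level in all 21 libraries, with Rsph9 and Tekt2 in between.

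**Figure D1:**
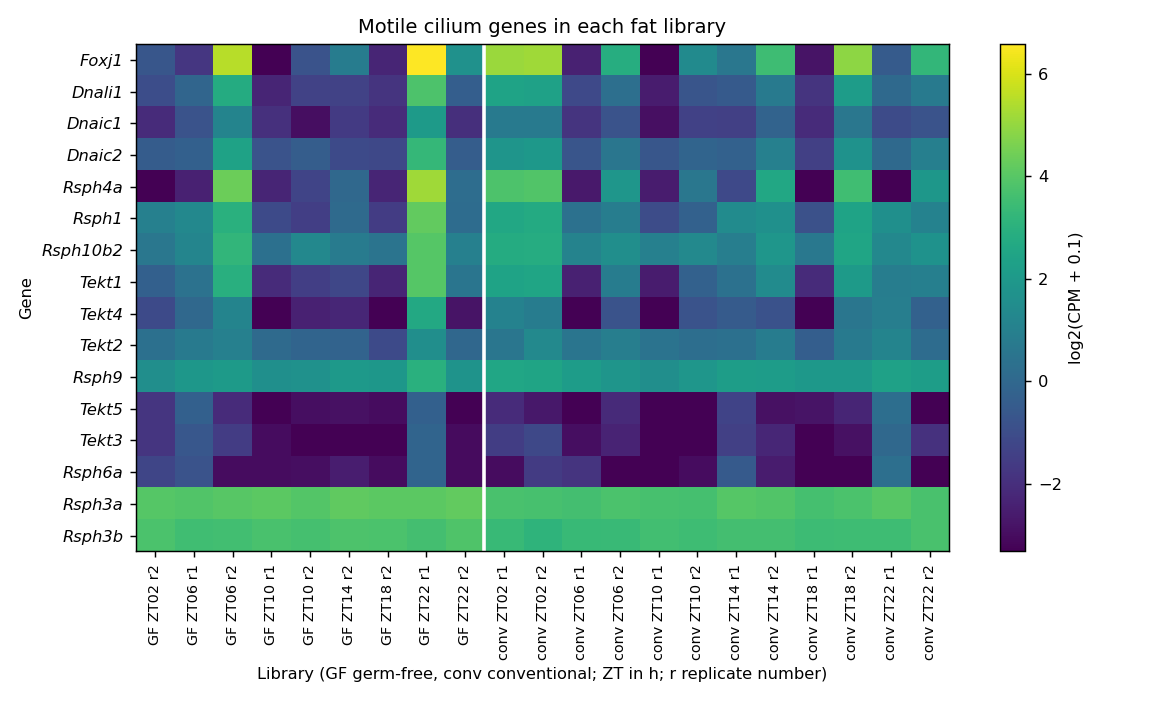
Level of each of the 16 motile cilium genes (rows) in each of the 21 libraries (columns, germ-free left of the white line, conventional right), coloured by log2(CPM + 0.1). One germ-free library at ZT22 is brightest for most genes, whereas Rsph3a and Rsph3b show almost the same colour throughout.

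Foxj1 (on the GRCm38 assembly at chr11:116330704-116335399, minus strand, protein coding in GENCODE M21) ranged over 9 germ-free libraries from 0 to 95.7 CPM with a median of 0.533 CPM, against 0 to 35.6 CPM with a median of 4.83 CPM over 12 conventional libraries. The germ-free arm held both the highest library and 1 of the 2 libraries with no count, so the conventional range lay within the germ-free range. In germ-free fat, Foxj1 was at 95.7 and 3.12 CPM in replicates 1 and 2 of ZT22, at 0.200 and 45.2 CPM in replicates 1 and 2 of ZT06, and at 0 and 0.484 CPM in replicates 1 and 2 of ZT10. Its single libraries stood at 0.533 CPM at ZT02, 1.71 CPM at ZT14 and 0.105 CPM at ZT18. At ZT06 and ZT22, libraries of the germ-free arm thus differed by more than the medians of the arms did. In conventional fat, replicates 1 and 2 were alike at ZT02 (34.3 and 35.6 CPM) but far apart at ZT18 (0.0446 and 29.5 CPM).

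At the other conventional times, replicates 1 and 2 gave 0.0894 and 7.06 CPM at ZT06, 0 and 2.60 CPM at ZT10, 1.41 and 11.3 CPM at ZT14, and 0.609 and 9.27 CPM at ZT22. Foxj1 was therefore higher in the library numbered 2 at 6 of 6 conventional times, and at 2 of the 3 germ-free times that had both numbers. What the numbers stand for is not given in the labels. In a fit with number, time and arm as terms, Foxj1 was 1.85 ± 1.70 higher on the log2 scale in libraries numbered 2 (SE, n = 21; edgeR quasi-likelihood test, Benjamini-Hochberg adjusted p = 1.0). None of the members passed between the numbers in either direction, nor did any reach an unadjusted p of 0.05. Among the 18334 genes tested, 0% were called higher and 0.24% lower in libraries numbered 2, and 583 had an unadjusted p below 0.05.

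**Figure D2:**
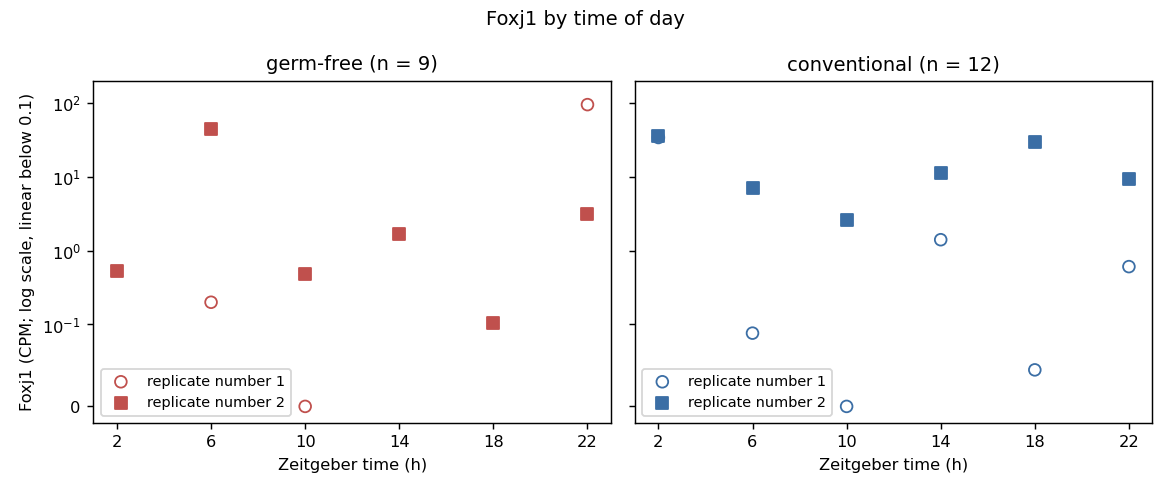
Foxj1 in CPM (log axis, linear below 0.1) against zeitgeber time in hours in germ-free (left) and conventional (right) fat, with 1 point per library and open circles for number 1 and filled squares for number 2. At most times the points lie far apart, though not at conventional ZT02, and the filled squares lie above the open circles except at germ-free ZT22.

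The dynein genes varied with Foxj1 from library to library. Dnali1, the light intermediate chain of inner arms, ranged from 0.106 to 14.01 CPM with a median of 0.400 CPM in germ-free libraries, against 0.0666 to 5.21 CPM with a median of 1.04 CPM in conventional libraries. Dnaic1, an outer arm intermediate chain mutated in human primary ciliary dyskinesia, ranged from 0.0285 to 4.10 CPM (median 0.159 CPM) in germ-free libraries, against 0.0333 to 1.60 CPM (median 0.431 CPM) in conventional libraries. Dnaic2, its partner intermediate chain, ranged from 0.341 to 9.47 CPM (median 0.655 CPM) in germ-free libraries, against 0.268 to 3.74 CPM (median 1.17 CPM) in conventional libraries. For all 3 genes the germ-free ZT22 replicate 1 library was the highest, germ-free ZT06 replicate 2 was next, and the conventional ZT02 libraries followed. The arms overlapped for each.

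The radial spoke genes divided. Rsph4a, a spoke head protein, ranged from 0 to 35.6 CPM with a median of 0.313 CPM in germ-free libraries, against 0 to 14.9 CPM with a median of 2.53 CPM in conventional libraries. Rsph1, another spoke head protein, ranged from 0.236 to 18.5 CPM (median 1.04 CPM) in germ-free libraries, against 0.400 to 6.48 CPM (median 2.30 CPM) in conventional libraries. Both were highest in the same 4 libraries as Foxj1. Rsph10b2, named Rsph10b in GENCODE M21, ranged from 1.17 to 15.7 CPM in germ-free libraries, against 1.47 to 6.85 CPM in conventional libraries, so that it kept a floor above 1 CPM where Foxj1 was absent. Rsph9, also of the spoke head, spanned 2.91 to 7.70 CPM in germ-free libraries and 2.86 to 5.65 CPM in conventional libraries.

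Rsph3a and Rsph3b, which encode spoke stalk proteins, were the exception. Rsph3a ranged from 14.8 to 18.6 CPM with a median of 16.8 CPM in germ-free libraries, against 12.3 to 16.0 CPM with a median of 13.4 CPM in conventional libraries. Rsph3b ranged from 11.7 to 14.3 CPM with a median of 13.2 CPM in germ-free libraries, against 8.68 to 13.3 CPM with a median of 11.2 CPM in conventional libraries. Most germ-free libraries lay in the upper part of the range of both genes, but the arms overlapped. The coefficient of variation over 21 libraries was 12.7% for Rsph3a and 12.2% for Rsph3b, against 178% for Foxj1 and 169% for Rsph4a. The pair are close paralogs, and how reads shared by both were counted is not given in the sources used here, so the split between them is uncertain.

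Among the tektins, Tekt1 ranged from 0.105 to 15.7 CPM with a median of 0.720 CPM in germ-free libraries, against 0.0666 to 5.51 CPM with a median of 1.70 CPM in conventional libraries. Tekt2 spanned a narrower 0.368 to 2.86 CPM (median 0.980 CPM) in germ-free libraries, against 0.669 to 2.43 CPM (median 1.36 CPM) in conventional libraries. Both were highest in the germ-free ZT22 replicate 1 library and their arms overlapped. Tekt4 reached 6.21 CPM in germ-free and 2.01 CPM in conventional libraries and had no count in 5 libraries. Tekt3, Tekt5 and Rsph6a, a paralog of Rsph4a known from sperm, never exceeded 1.14 CPM.

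Per kilobase of exon, the scale on which genes can be compared, the mean level over 21 libraries was 7.40 CPM per kb for Rsph3b, 6.42 for Rsph3a, 5.06 for Foxj1, 2.71 for Rsph1, 1.54 for Tekt1 and 1.49 for Rsph4a. Rsph6a was lowest at 0.0778 CPM per kb. The germ-free ZT22 replicate 1 library was highest for 11 of the 16 members, conventional ZT22 replicate 1 for 3, and germ-free ZT22 replicate 2 for the other two, Rsph3a and Rsph3b.

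How closely the members moved together was measured by correlating log2 CPM (prior count 2) with that of Foxj1 and, since sperm also contain an axoneme, with that of Prm2, a protamine that packs sperm DNA and was chosen after its values were seen. This gave 31 relations over 21 libraries, each with a two-sided permutation test and Benjamini-Hochberg adjustment over the 31. With Foxj1, Rsph4a had Pearson r = 0.944 and Spearman rho = 0.902 (adjusted permutation p = 3.88e-05 for r and 5.17e-05 for rho, the raw value being the smallest that 100000 permutations can give). Without the 2 libraries farthest from the Foxj1 median, r was 0.939. It was 0.935 among germ-free and 0.950 among conventional libraries, and 0.955 among libraries numbered 2 and 0.927 among those numbered 1.

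The same held for Dnali1 (r = 0.932, rho = 0.929), Tekt1 (0.928 and 0.937), Dnaic2 (0.904 and 0.899), Rsph10b2 (0.874 and 0.849), Dnaic1 (0.866 and 0.844), Rsph1 (0.828 and 0.811) and Tekt4 (0.814 and 0.812), with adjusted permutation p-values of at most 0.000155. In each of these genes r stayed at 0.753 or more without the 2 farthest libraries. Within the arms the lowest r of these genes was 0.780 in germ-free (Tekt4) and 0.836 in conventional libraries (Rsph1), and within the numbers it was 0.868 in number 2 and 0.866 in number 1 (both Tekt4). Rsph9 (r = 0.654, rho = 0.624) and Tekt2 (r = 0.593, rho = 0.597) followed Foxj1 less closely, with adjusted permutation p-values for r of 0.00220 and 0.00999. Without the 2 farthest libraries, r was 0.517 for Rsph9 and 0.562 for Tekt2. Rsph3a (r = 0.0352, rho = 0.132) and Rsph3b (r = -0.251, rho = -0.163) did not pass, with adjusted permutation p-values for r of 0.877 and 0.387. Libraries share one tissue and one scaling, so these values describe how genes varied together across libraries and not within cells.

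In the 10 libraries with at least 100 Foxj1 counts, Foxj1 itself spanned a 36.9-fold range. Over this range Rsph4a stayed between 34.0 and 54.9 counts per 100 Foxj1 counts, with a median of 41.2, and Dnali1 between 13.98 and 21.99, with a median of 15.0. Their ratios to Foxj1 varied with a coefficient of variation of 16.2% and 16.3%, and that of Rsph1 with 24.8%. The ratio varied with 35.1% for Dnaic1, 40.3% for Tekt1, 43.2% for Dnaic2, 69.4% for Rsph10b2 and 70.7% for Tekt4. It varied with 100.6% for Rsph9, from 8.05 to 138 counts per 100 Foxj1 counts, and with 118% for Rsph3a, from 17.7 to 594. Among the spoke genes, Rsph4a and Rsph1 thus kept a steadier proportion to Foxj1 in these libraries than Rsph9, Rsph10b2 or Rsph3a did.

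Over all libraries, Tekt3, Tekt5 and Rsph6a had a higher r with the spermatid gene than with Foxj1. Prm2 ranged from 0 to 17.1 CPM with a median of 0.243 CPM in germ-free libraries, against 0 to 46.9 CPM with a median of 0.548 CPM in conventional libraries. Conventional ZT22 replicate 1 held the highest values of Prm2 (46.9 CPM), Rsph6a (1.14 CPM), Tekt5 (1.10 CPM) and Tekt3 (0.913 CPM). In that library Foxj1 was at 0.609 CPM and Rsph4a had no count.

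With Prm2, Rsph6a had r = 0.916 and rho = 0.794 (adjusted permutation p = 3.88e-05 for r and 0.000133 for rho), Tekt5 had r = 0.819 and rho = 0.800 (adjusted permutation p = 6.89e-05 and 0.000155), and Tekt3 had r = 0.760 and rho = 0.710 (adjusted permutation p = 0.000423 and 0.00183). Without the 2 libraries farthest from the Prm2 median, r was 0.879 for Rsph6a, 0.725 for Tekt5 and 0.653 for Tekt3. For Rsph6a it was 0.948 among germ-free and 0.902 among conventional libraries, and for Tekt3 it was 0.466 among libraries numbered 2 and 0.872 among those numbered 1. Against Foxj1, Rsph6a had r = 0.0421 and rho = 0.0844, and Tekt5 had r = 0.240 and rho = 0.310, with adjusted permutation p-values for r of 0.877 and 0.398. Tekt3 lay between, with r = 0.455 (adjusted permutation p = 0.0668) and rho = 0.502 (adjusted permutation p = 0.0416), so that only its rank correlation passed. Its r with Foxj1 was 0.614 among libraries numbered 2, above its r with Prm2 there, and 0.669 among those numbered 1, below it. Some members of the other groups also passed with Prm2, at a lower r. These were Rsph1 (r = 0.551, rho = 0.546; adjusted permutation p = 0.0231 and 0.0263), Tekt2 (r = 0.508, rho = 0.512; 0.0375 and 0.0389) and, for r but not for rho, Tekt4 (r = 0.506, rho = 0.463; 0.0385 and 0.0647). For these 3 genes r with Prm2 was 0.194 to 0.365 among libraries numbered 2 and 0.708 to 0.744 among those numbered 1, and 0.442 to 0.580 without the 2 farthest libraries. The groups are therefore not cleanly apart. Foxj1 and Prm2 themselves had r = 0.131 and rho = 0.192 (adjusted permutation p = 0.628 and 0.495). Tekt3, Tekt5 and Rsph6a rest on few counts, between 117 and 130 in all libraries together. Prm2 and this group were both picked after their values were seen, so the p-values with Prm2 are descriptive only.

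**Figure D3:**
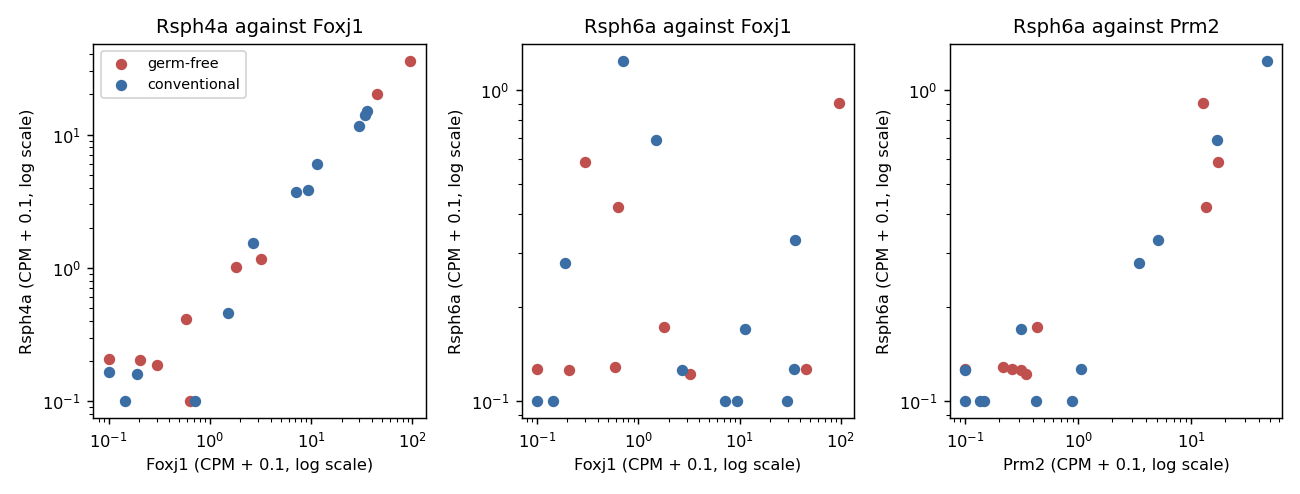
Rsph4a against Foxj1 (left), Rsph6a against Foxj1 (middle) and Rsph6a against Prm2 (right), in CPM + 0.1 on log axes, 1 point per library, with germ-free in red and conventional in blue. Rsph4a lies along a line with Foxj1 in both arms, whereas Rsph6a scatters against Foxj1 and increases with Prm2.

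The dynein heavy chains, the motor subunits themselves, also differed in how closely they followed Foxj1, with r above 0.9 in 3 of 5 outer arm and 3 of 8 inner arm chains tested. Dnahc5, an outer arm heavy chain mutated in human primary ciliary dyskinesia, ranged from 0 to 151 CPM with a median of 1.22 CPM in germ-free libraries, against 0 to 65.3 CPM with a median of 10.5 CPM in conventional libraries. Its r with Foxj1 over 21 libraries was 0.975, and that of the inner arm chain Dnahc6 was 0.978. Dnahc8 and Dnahc17, known from sperm tails, had r of 0.0547 and -0.163 with Foxj1 and were highest in conventional ZT22 replicate 1. Dnahc3, an inner arm chain with a mean of 23.4 CPM, did neither, with r = 0.470 and its highest level, 51.3 CPM, in conventional ZT18 replicate 1. These heavy chains, like the next values, are descriptions chosen after their values were seen.

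Of 42 further axoneme genes tested, 17 (40.5%) had r above 0.9 with Foxj1, against 182 (0.993%) of all 18333 genes tested apart from Foxj1. The 21 primary cilium genes tested, which serve the immotile sensory cilium of most cells, included 0 such genes, with a median r of 0.485 and a highest of 0.805. That median still lay above the -0.0236 over all genes tested, so these genes followed Foxj1 in part. Among 5 genes of the multiciliated cell programme tested, none passed 0.9, and Myb was highest at 0.898. Trp73, of the same programme but with too few counts to be tested, had r = 0.917. The genes most like the mean standardised profile of the 13 members tested were Mns1 (r = 0.976 over 21 libraries), Efcab10, Tmem232, Lhb, Ttc21a, Ubxn10, Ttc16, Iqub, Akd1, Rgs22, Fam183b, Spag16, Ttc18, Spag6 and Ccdc113 (r = 0.959), after leaving out members, pseudogenes and unnamed gene models.

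Markers of the tissues around the depot were set beside the members to check the duct of origin. Summed over 11 genes of non-ciliated duct epithelium, levels ranged from 44.7 to 866 CPM in germ-free libraries (median 70.7 CPM), against 40.8 to 448 CPM in conventional libraries (median 117 CPM). The endocytic receptor gene Lrp2 reached 570 CPM in germ-free ZT22 replicate 1, 289 CPM in germ-free ZT06 replicate 2, 310 and 258 CPM in replicates 1 and 2 of conventional ZT02, and 236 CPM in conventional ZT18 replicate 2. These are the 5 libraries in which Foxj1 exceeded 20 CPM. Lrp2 made up most of the highest sum. Over the 9 genes of this list tested, the median r with Foxj1 was 0.790, from 0.0660 for Cubn to 0.914 for the transcription factor gene Pax8, with Lrp2 at 0.839. Mmp7, a protease gene placed among the accessory gland markers, had r = 0.927.

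Most principal cell markers of the epididymis were low or absent in 4 of those 5 libraries. In germ-free ZT22 replicate 1, 25 of 26 principal cell markers were detected and summed to 626 CPM, with Gpx5, a secreted peroxidase, at 165 CPM and the lipocalin Lcn8 at 54.9 CPM. In germ-free ZT06 replicate 2 the 26 markers summed to 12.0 CPM, with 14 at 0, among them Lcn8, and Gpx5 at 0.0268 CPM. Most of that sum was Adam7, a gene known from epididymal epithelium, at 10.4 CPM there and at 112 CPM in germ-free ZT22 replicate 1, with r = 0.717 with Foxj1. In conventional libraries the 26 markers summed to 21.4 and 3.31 CPM in replicates 1 and 2 of ZT02 and to 41.6 CPM in ZT18 replicate 2. Of the markers, 16, 11 and 12 were detected in these 3 libraries, with Gpx5 at 0 in all 3. The highest was Crisp1 at 10.6 CPM in ZT02 replicate 1, Adam7 at 2.34 CPM in ZT02 replicate 2 and Crisp1 at 35.2 CPM in ZT18 replicate 2. Over 21 libraries, Crisp1 had r = -0.0598 with Foxj1. Germ-free ZT22 replicate 2 summed to 466.0 CPM, of which Crisp1 made 391 CPM, while its Foxj1 was at 3.12 CPM. Conventional ZT10 replicate 2 summed to 132 CPM, of which Pate4 made 96.5 CPM and Spinkl 33.65 CPM, while its Foxj1 was at 2.60 CPM. That library also had the highest sum of accessory gland markers, 1784 CPM, and Pate4 had no count in germ-free ZT22 replicate 1. Whether the 132 CPM came from principal cells or from accessory gland was not tested. The name epididymal duct is therefore not borne out by most principal cell markers in 4 of the 5 libraries with the most Foxj1. A few markers, above all Crisp1 and Adam7, were present there. The genes are called here by their axonemal role.

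**Figure D4:**
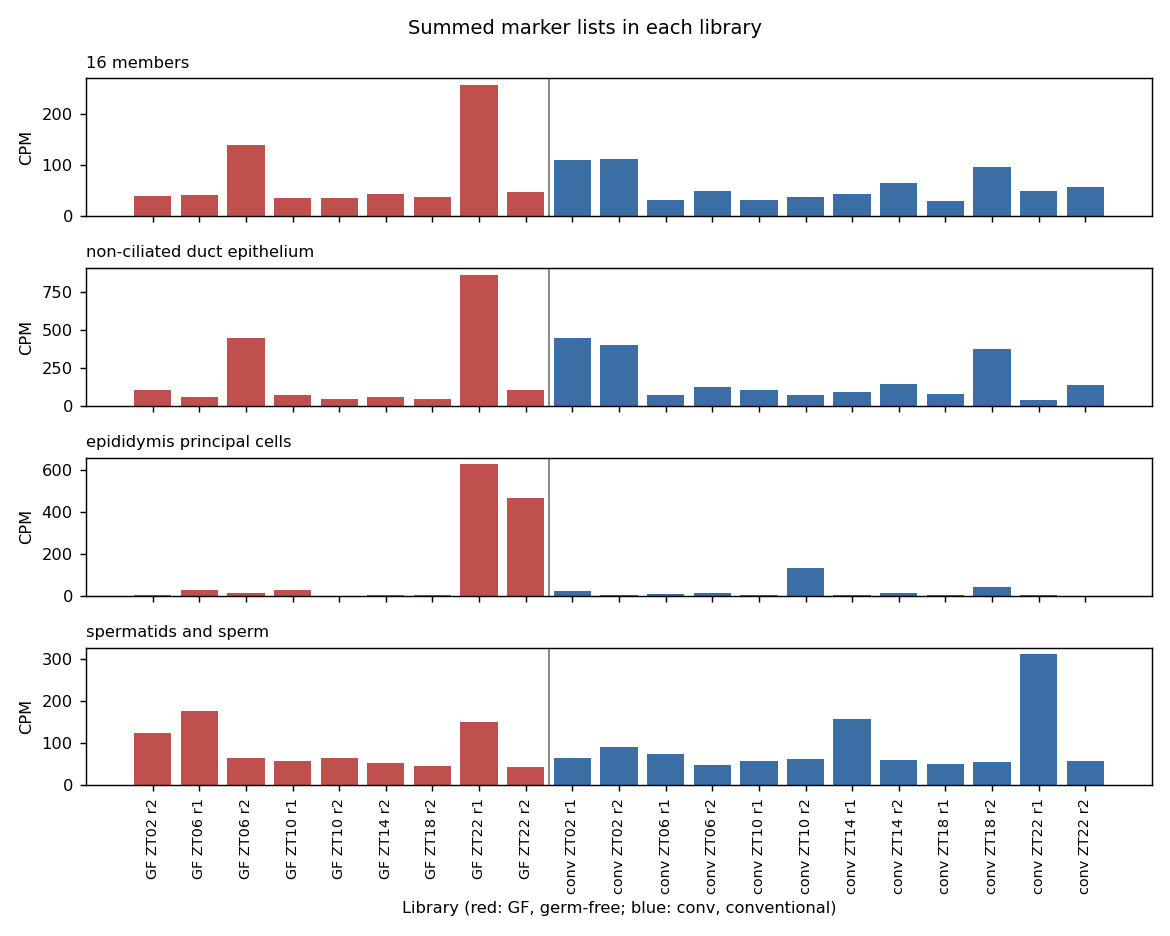
Summed CPM of the 16 members, of non-ciliated duct epithelium markers, of epididymis principal cell markers and of spermatid and sperm markers (rows of bars, from 0) in each library, germ-free in red on the left and conventional in blue on the right. The first 2 rows have the same tall bars. Principal cell markers are instead highest in the 2 germ-free ZT22 libraries, followed by conventional ZT10 replicate 2, where Pate4 made up most of the sum. Spermatid markers, which include the steadily present Odf2, are highest in conventional ZT22 replicate 1.

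The lists of other cell types and tissues had lower median r with Foxj1 than the duct epithelium list. Their highest single genes included Spata18 (r = 0.786) among spermatid and sperm markers and Sox9 (r = 0.690) among Sertoli and Leydig cell markers, both named after their values were seen. Spermatid and sperm markers summed to between 43.8 and 175 CPM in germ-free libraries, against 48.6 to 311 CPM in conventional libraries. The floor of that sum was Odf2, at 38.6 to 61.8 CPM in germ-free and 43.1 to 80.6 CPM in conventional libraries. Without Odf2 the other 18 markers summed to between 2.90 and 114 CPM in germ-free libraries (median 5.59 CPM), against 4.99 to 230 CPM in conventional libraries (median 9.66 CPM). Accessory gland markers summed to between 0.583 and 103 CPM in germ-free libraries, nearly all of the highest being Mmp7, against 0.966 to 1784 CPM in conventional libraries, the highest being ZT10 replicate 2. Mesothelial markers summed to between 292 and 777 CPM in germ-free libraries, against 330 to 645 CPM in conventional libraries, with a median r of 0.0611 with Foxj1. Adipocyte markers summed to between 14280 and 21980 CPM in germ-free libraries, against 12360 to 18980 CPM in conventional libraries, and had a median r of -0.55 with Foxj1. The lowest adipocyte sum in each arm was in a library high in Foxj1, germ-free ZT22 replicate 1 and conventional ZT02 replicate 2. Markers of epididymis clear and basal cells, of Sertoli and Leydig cells and of liver had median r with Foxj1 of 0.0904, 0.203 and 0.0341. The part of any of these tissues in the members' levels was not tested.

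The members' promoters were also read for motifs of known regulators of ciliary genes. Any link between these motifs and how the members varied across libraries was not tested. RFX factors bind the X-box, whose half-site was searched as GTTGCC on either strand. RefSeq promoter windows (GRCm38.p6, from 250 bases before to 50 after a gene's start) were found for 12 of the 16 members, in 15 windows. Not in that table were Foxj1, Rsph1, Rsph4a and Rsph10b2. The windows below, shown 5′ to 3′ along the gene with the matching letters in capitals, are of 2 members that followed Foxj1 (Tekt1 and Dnaic2), 1 that followed it in part (Rsph9) and 1 that did not (Rsph3a).
Tekt1, chr11:72361833-72362132, minus strand: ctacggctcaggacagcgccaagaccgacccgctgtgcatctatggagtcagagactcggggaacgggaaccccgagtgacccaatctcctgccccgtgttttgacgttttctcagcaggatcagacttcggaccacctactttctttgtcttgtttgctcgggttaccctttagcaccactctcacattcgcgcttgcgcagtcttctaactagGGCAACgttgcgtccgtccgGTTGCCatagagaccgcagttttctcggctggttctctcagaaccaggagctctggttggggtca
Dnaic2, chr11:114727169-114727468, plus strand: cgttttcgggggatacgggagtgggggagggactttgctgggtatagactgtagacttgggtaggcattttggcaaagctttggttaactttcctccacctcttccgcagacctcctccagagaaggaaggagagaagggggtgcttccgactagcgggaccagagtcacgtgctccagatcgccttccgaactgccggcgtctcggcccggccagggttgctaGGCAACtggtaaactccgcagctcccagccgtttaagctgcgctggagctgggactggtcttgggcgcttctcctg
Rsph9, chr17:46144151-46144450, minus strand: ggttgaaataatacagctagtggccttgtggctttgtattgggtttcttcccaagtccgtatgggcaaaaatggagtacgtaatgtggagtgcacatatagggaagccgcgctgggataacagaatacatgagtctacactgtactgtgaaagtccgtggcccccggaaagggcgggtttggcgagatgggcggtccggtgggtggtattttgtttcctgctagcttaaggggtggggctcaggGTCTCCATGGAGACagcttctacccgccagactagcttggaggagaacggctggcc
Rsph3a, chr17:7945364-7945663, plus strand: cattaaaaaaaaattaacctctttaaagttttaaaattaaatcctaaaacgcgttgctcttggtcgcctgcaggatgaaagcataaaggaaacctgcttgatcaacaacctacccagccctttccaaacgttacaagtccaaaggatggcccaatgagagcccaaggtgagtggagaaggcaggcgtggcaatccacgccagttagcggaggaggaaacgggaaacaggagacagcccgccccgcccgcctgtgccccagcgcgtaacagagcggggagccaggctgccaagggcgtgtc
Tekt1 held 2 half-sites in this window, on opposite strands, and none in the window of its other start. Dnaic2 held 1. Rsph9 held no GTTGCC but an inverted pair, searched as GTNNCC and GGNNAC up to 3 bases apart, and Rsph3a held neither.

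The half-site occurred in promoters of 5 of the 12 members, Tekt1, Tekt2, Tekt4, Dnaic2 and Rsph3b, against 14.1% of 27025 genes and 12.5% of all 32851 windows. The inverted pair occurred in 2 of 12 members, Rsph9 and Tekt4, against 4.38% of genes and 3.86% of windows. The searches overlap, since GTTGCC is one form of GTNNCC. The forkhead motif GTAAACA, the kind that FOXJ1 binds, occurred in 1 of 12, Tekt3, against 4.05% of genes and 3.65% of windows. A match describes letters in the window only. Rsph3b, which did not follow Foxj1, held a half-site, and Dnali1, which did, held none of the 3 motifs.

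Germ-free and conventional fat were compared to ask whether colonisation changed the members' levels, with time of day as a term in the fit. Of the 16 members, 13 passed the filter on low counts, and Tekt3, Tekt5 and Rsph6a did not. Rsph3a and Rsph3b were higher in germ-free fat and no member was lower, where 15.3% of the 18334 genes tested were higher and 11.6% lower at an adjusted p below 0.05. A count of 2 among 13 is close to that background. Rsph3a rose by 0.28 ± 0.04 on the log2 scale (SE; 9 germ-free and 12 conventional libraries; edgeR quasi-likelihood test, Benjamini-Hochberg adjusted p = 0.000378). Rsph3b rose by 0.24 ± 0.05 (edgeR adjusted p = 0.00462). No other member reached an unadjusted p of 0.05, and DESeq2 also called 2 members higher and 0 lower. The call of Rsph3b was lost when libraries numbered 2, libraries numbered 1, or the times with 2 libraries in each arm were taken alone, and that of Rsph3a among libraries numbered 1. The change of Rsph3b was then 0.27, 0.14 and 0.14 (edgeR adjusted p = 0.106, 0.612 and 0.209), and that of Rsph3a among libraries numbered 1 was 0.23 (edgeR adjusted p = 0.459). These subsets hold fewer libraries.

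No other member passed, and those that followed Foxj1 had the widest errors. The log2 change was -0.22 ± 1.80 for Foxj1 (edgeR adjusted p = 0.951), 0.09 ± 1.09 for Dnali1 (0.968), 0.10 ± 0.88 for Dnaic1 (0.953) and -0.02 ± 0.70 for Dnaic2 (0.988). Among the tektins it was -0.17 ± 1.05 for Tekt1 (0.936), -0.38 ± 0.27 for Tekt2 (0.319) and -0.38 ± 1.09 for Tekt4 (0.845). It was -0.07 ± 0.73 for Rsph1, -0.23 ± 1.78 for Rsph4a, -0.12 ± 0.14 for Rsph9 and 0.03 ± 0.53 for Rsph10b2, with edgeR adjusted p-values between 0.583 and 0.976. An error of 1.80 on the log2 scale means that changes of several fold in Foxj1 in either direction were not detectable with these libraries.

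The estimates of the Foxj1 group turned with the libraries used. Without germ-free ZT22 replicate 1 the change was -0.93 for Dnali1 and -0.98 for Tekt1, and without germ-free ZT02 replicate 2 it was 0.64 for Dnali1 and 0.35 for Tekt1. The change of Foxj1 was -2.20 without germ-free ZT06 replicate 2 and 0.70 without conventional ZT10 replicate 2. Within libraries numbered 2 it was -2.82 and within those numbered 1 it was 6.68. The germ-free libraries numbered 1 are from ZT06, ZT10 and ZT22 only, and the one at ZT22 held the most Foxj1. The median change of the 13 members tested was -0.07, against 0.03 over all genes tested. It was -0.85 without germ-free ZT22 replicate 1 and 0.33 without germ-free ZT02 replicate 2. No member had arms that did not overlap, as 0.665% of the genes tested did.

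**Figure D5:**
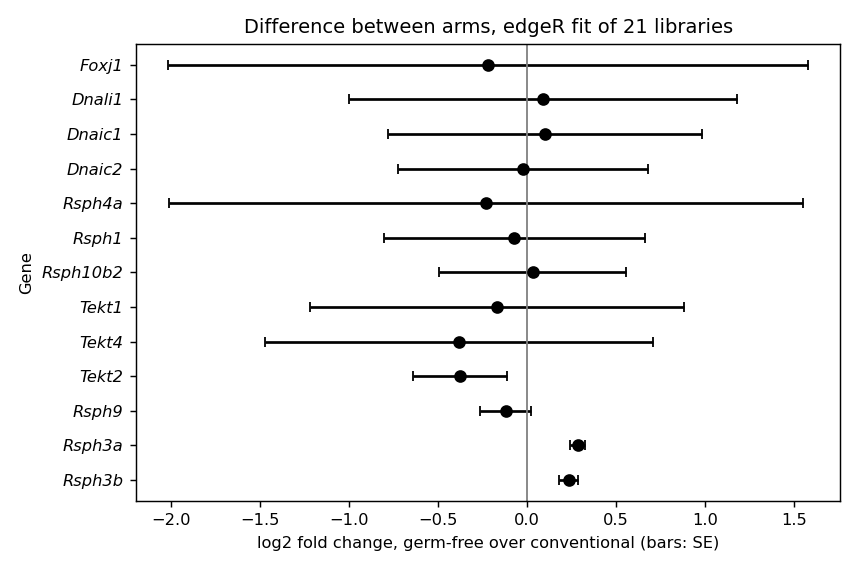
Log2 fold change of germ-free over conventional fat (x axis) with its standard error (bars) for the 13 members tested (rows), from the edgeR fit of all 21 libraries. Rsph3a and Rsph3b lie to the right of 0 with short bars, whereas the bars of Foxj1 and Rsph4a are the widest and cross 0.

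Related lists gave the same picture between the arms. None of the 5 outer arm heavy chains tested, the 8 inner arm heavy chains tested, the 42 further axoneme genes or the 5 genes of the multiciliated programme passed in either direction, with 0, 1, 1 and 0 of them at an unadjusted p below 0.05. The one among the inner arm chains was Dnahc3, at -0.79 ± 0.32 (edgeR adjusted p = 0.0775). Their median log2 changes were -0.39, -0.26, -0.10 and -0.15. The 9 genes of non-ciliated duct epithelium tested also gave no call, with a median of -0.04 and no gene at an unadjusted p below 0.05.

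Of the 21 primary cilium genes, 5 were lower in germ-free fat and none higher, with a median of -0.09. Tulp3, which carries receptors into the primary cilium, changed by -0.42 ± 0.10 (edgeR adjusted p = 0.00457), and the ciliary channel gene Pkd1 by -0.28 ± 0.08 (0.0136). The intraflagellar transport genes Ift122 and Ift140 changed by -0.35 ± 0.10 (0.0172) and -0.22 ± 0.07 (0.0375), and the channel partner Pkd2 by -0.17 ± 0.06 (0.0488). Over all 18334 genes tested, 11.6% were lower and 15.3% higher. Of the 6 adipocyte markers, 2 were higher and 1 lower, with a median of 0.04. Retn, which encodes the hormone resistin, rose by 0.47 ± 0.12 (edgeR adjusted p = 0.00871) and the fatty acid carrier gene Fabp4 by 0.36 ± 0.10 (0.0119), whereas the leptin gene Lep changed by -0.67 ± 0.18 (0.0117).

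Rhythms were tested with a 24 h cosine and sine in each arm. No member passed in conventional fat, where 0.813% of genes did, and none had an unadjusted p below 0.05. No member passed in germ-free fat, where 4.64% of genes did, although 5 members and 4177 genes had an unadjusted p below 0.05. The fitted amplitude of Foxj1 was 3.701 log2 units in germ-free fat, peaking at 1.25 h, against 1.74 log2 units peaking at 22.6 h in conventional fat (edgeR adjusted p = 0.316 and 0.679). That of Rsph3a was 0.10 in germ-free and 0.07 log2 units in conventional fat. The germ-free curve of Foxj1 rests on 9 libraries, of which the highest, at ZT22, and the second highest, at ZT06, each have a low partner at the same time. No rhythm differed between the arms for any member, nor for any gene (0% of 18334 at an adjusted p below 0.05), and 0 members and 1415 genes had an unadjusted p below 0.05.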

How the data were processed

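Total RNA of epididymal fat was sequenced as rRNA-depleted, stranded, paired-end libraries, per the labels' protocols. STAR 2.4.0i and the mm10 build come from the submitters' processing notes. For the counting program, its strand setting and the annotation, no source used here gives a name. The table the authors deposited holds raw read counts per gene over exons, with no normalization, and the length of each gene's exons.

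From these counts, edgeR 4.0.16 in R 4.3.3 kept 18334 genes with filterByExpr by arm, scaled them by TMM and fitted quasi-likelihood models over all 21 libraries. The models held time (6 levels) and arm, time, arm and replicate number, or a 24 h cosine and sine per arm. P-values were adjusted by Benjamini-Hochberg over all genes tested at a threshold of 0.05. The standard error is the log2 change divided by the square root of F. Genes described in full were Foxj1, Dnali1 and the 2 members of each other role with the highest CPM per kb; like genes were the 15 with the highest correlation to the members' mean. Other named genes were chosen after their values were seen. DESeq2 1.42.0, other scaling, filters, blocks and subsets were tried as alternatives. The members, lists and tests were chosen with earlier results of these data known. A few list symbols were matched to older spellings in the table. Promoters are from RefSeq and gene positions from GENCODE M21, both on GRCm38.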

Additional observations from a re-analysis of the deposited data

Results flagged for a closer look

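Within the 9 germ-free libraries, 4 of the 8 members looked at had a highest library whose gap to the next, as a share of the whole range, exceeded Dixon's critical value of 0.493. The gap was 0.528 for Foxj1, 0.524 for Dnali1, 0.524 for Tekt1 and 0.494 for Dnaic1. In each the library was germ-free ZT22 replicate 1. Chance exceeds this value in about 1 in 20 groups of normally distributed values, which these CPM values, spanning 0 to 95.7 for Foxj1, are not. On the log2 CPM scale (prior count 2) the gap was 0.102 for Foxj1, 0.164 for Dnali1, 0.160 for Tekt1 and 0.172 for Dnaic1, all below the critical value. These genes varied together, so the 4 are not independent of one another. The same library held the highest sums of non-ciliated duct epithelium markers (866 CPM) and of epididymis principal cell markers (626 CPM). Their part in these values was not tested.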

How the results depend on the processing

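The count of 2 members higher in germ-free fat was 1 among libraries numbered 2, 0 among those numbered 1 and 1 where both arms had 2 libraries. It was 2, with 0 lower, under DESeq2's size factors, no filter on low counts, DESeq2's Wald test, and without any single library. No member was called rhythmic, different in rhythm or different between numbers under any alternative run. Of the fold changes that passed no threshold, Dnaic1 and Dnali1 turned to -1.77 and -1.77 among libraries numbered 2 and to -0.0242 and -0.0248 with DESeq2. Among libraries numbered 1, Foxj1 turned to 6.68, Tekt1 to 3.004, Dnaic2 to 1.28 and Tekt2 to 0.0898. Where both arms had 2 libraries, Foxj1 turned to 1.87, Tekt1 to 1.42 and Dnaic2 to 1.12. Without any one library, the change ranged from -2.20 to 0.70 for Foxj1, from -0.98 to 0.35 for Tekt1, from -0.93 to 0.64 for Dnali1, from -0.85 to 0.59 for Dnaic1 and from -0.74 to 0.35 for Dnaic2. An alternative chosen after seeing the data left out the 3 libraries whose epididymis principal or accessory gland markers summed over 100 CPM. It kept 2 members higher, and Dnaic1 and Dnali1 turned to -0.49 and -0.67. The cause of these changes was not tested. With the replicate block, 2 members were higher and Foxj1 changed by -0.09. Libraries with the same number correlated in their deviations at 0.56 for ZT06, 0.22 for ZT10 and -0.18 for ZT22, so the numbers were not taken as pairs. Genes with few counts, above all Tekt3, Tekt5, Rsph6a and Dnaic1, are limited by depth.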
